A study of Mus musculus with 16 samples.

Results

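The distal control organoids compared here were 4 of the 16 RNA sequencing libraries of the series: distal Scramble-sgRNA organoids in WENR-plus medium (2 libraries) and the same organoids in WENR-minus medium (2 libraries). They were chosen by the region, the guide and the medium that the sample titles state. Organoids are clusters of epithelium grown from stem cells in a gel. These were grown from the end of the descending colon of 2 female mice aged 8 weeks with a heterozygous Cre-inducible BRAF V600E allele (B6.129P2(Cg)-Braftm1Mmcm/J) and a heterozygous tdTomato reporter, the allele Gt(ROSA)26Sortm9(CAG-tdTomato)Hze from a B6;129S6 stock. All groups share this genotype, and the methods describe no Cre for these organoids. Every organoid had also received lentiviral Cas9 with a guide, a scrambled one in the controls, and 2 weeks of antibiotic selection. In month 4 each line was kept in WENR-plus for 2 days and then in one of the media for 3 days. WENR-plus holds Wnt3a, EGF, Noggin and R-spondin 1, and WENR-minus lacks all 4 of them, so that the effects of the single factors cannot be told apart. Proximal Scramble-sgRNA organoids (4 libraries) and distal Cdx2-sgRNA organoids (4 libraries, each line grown from a single cell with frameshifts in both alleles) of the same mice served for comparison.

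Stem cells at the base of a colon crypt depend on Wnt ligands, whose signal passes through Frizzled and LRP receptors and lets beta-catenin switch on target genes together with TCF factors. R-spondin holds these receptors at the cell surface by way of Lgr receptors, Noggin blocks bone morphogenetic proteins (BMP), which drive differentiation, and EGF acts through its receptor on MAP kinase signalling and growth. As cells move up the crypt and leave these signals, they stop dividing and become absorptive colonocytes or secretory cells.

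The 4 libraries held 16479050 to 18319430 estimated reads. Mitochondrial ribosomal RNA took 20.3 and 22.1% of the reads in WENR-plus and 24.3 and 21.5% in WENR-minus. At similar depth, 15395 and 15635 genes had at least 3 counts in WENR-plus and 14197 and 14367 in WENR-minus. The 50 most abundant nuclear protein-coding genes took 11.4 and 11.1% of the reads of all such genes in WENR-plus and 17.3 and 15.8% in WENR-minus. Reads were thus more concentrated on few genes in WENR-minus, and TMM, the scaling used here, set its factors to 1.1 and 1.13 in WENR-plus and to 0.764 and 0.804 in WENR-minus. Levels are given as CPM, the usual depth-scaled counts after TMM, for replicates 1 and 2 in that order. Each replicate number stands for another mouse. Without TMM, with library totals only (an alternative added after seeing these factors), the median log2 fold change of all genes moves by -0.50, from -0.11 to -0.61, and every change below should be read relative to that median.

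The labelled tissue was checked against markers. Of 10 epithelial markers 9 rose and Krt18 did not (90% called, beside 26.4% of all genes). Their summed level was 5692 to 6756 CPM in WENR-plus and 17703 to 19506 CPM in WENR-minus. Of 12 mesenchymal markers 4 had enough counts to be tested, with a summed level of 11.4 to 11.9 CPM in WENR-plus and 12.5 to 12.6 CPM in WENR-minus. Col1a1, Col3a1, Dcn and Lum had 0 counts in all 4 libraries. The 10 immune markers together reached 1.29 to 1.65 CPM in WENR-plus and 0.717 to 1.69 CPM in WENR-minus, with Cd3e, Adgre1 and Lyz2 at 0. The 6 endothelial markers reached 8.36 to 11.6 CPM in WENR-plus and 5.23 to 5.54 CPM in WENR-minus, most of it Vwf, and Cdh5, Tek and Emcn were at 0. Pecam1 rose from 0.10 and 0.269 to 2.00 and 1.08 CPM, a call lost without WENR-plus replicate 1 or WENR-minus replicate 1 (adjusted p = 0.12 for each). The part of other cell types in the results below was not tested. Cdx2, the colonic transcription factor targeted in the Cdx2-sgRNA organoids, was at 76.8 and 67.9 CPM in WENR-plus and at 112 and 110.0 CPM in WENR-minus in these controls. Frameshifts can leave the RNA level as it is, so that this level is no check of the guide labels.

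Withdrawal of the factors changed the level of 4039 genes. Of 15289 genes tested, 1872 (12.2%) were higher and 2167 (14.2%) lower in WENR-minus, 26.4% in all, by edgeR's quasi-likelihood test. A gene had to pass a Benjamini-Hochberg adjusted p of 0.05 and to change by more than 1 on the log2 scale. Only genes past both limits are said below to have risen or fallen. With library totals only, 914 genes rose and 3938 fell, so that 18.8% of the calls were higher, beside 46.3% with TMM. At a log2 fold change over 3 there were 302 genes that rose and 229 that fell, and over 5 there were 70 and 60. Replicates of one medium differed by a median of 0.25 (WENR-plus) and 0.23 (WENR-minus) on the log2 scale, and the media by 0.60 in replicate 1 and 0.64 in replicate 2. In 4036 of the 4039 called genes the values of the media did not overlap. Over all genes tested this held for 72.2%. With bulk RNA, fewer cells of a type and less RNA per cell cannot be told apart.

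**Figure D1:**
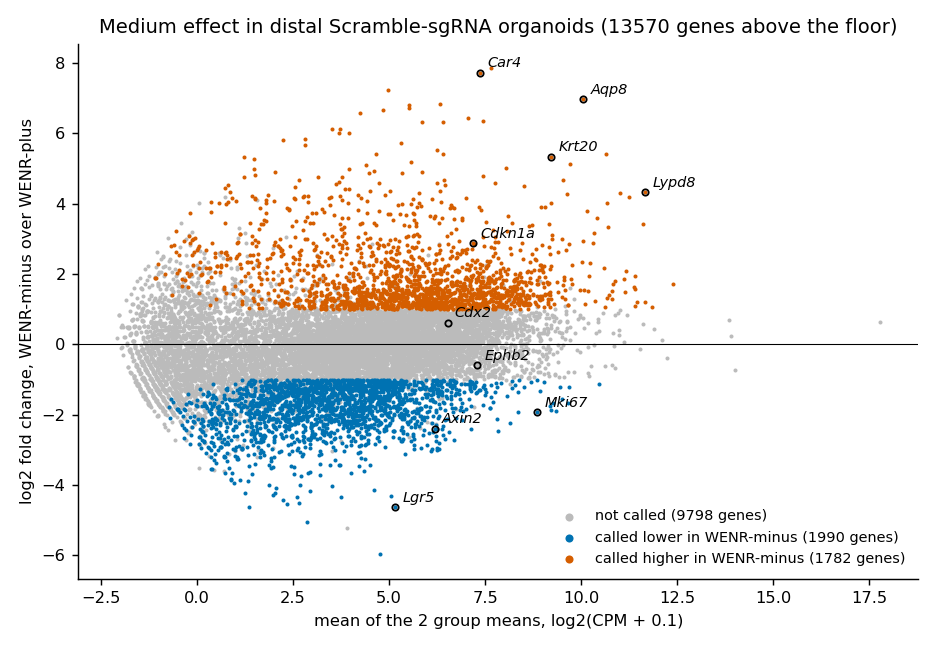
Each point is a gene with more than 3 counts in at least 1 library of each medium (13570 genes), with the mean level on the horizontal axis (log2 of CPM + 0.1) and the log2 fold change of WENR-minus over WENR-plus on the vertical axis. Genes called higher are orange (1782 of those drawn), genes called lower blue (1990), and Lgr5 at -4.63 and Car4 at 7.73 lie near the lower and upper edges.

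Stem cell and crypt base genes fell together. Of 26 genes in this list, 25 were tested, 18 fell and 0 rose (72% called, beside 26.4% of all genes). Their median log2 fold change was -2.35 beside -0.11 over all genes. Lgr5, the R-spondin receptor that marks crypt base stem cells (chr10:115450311-115587780 in GRCm38), was at 54.6 and 82.4 CPM in WENR-plus and at 1.92 and 3.58 CPM in WENR-minus (log2 fold change -4.63 ± 0.71 SE, adjusted p = 0.00048). Both WENR-minus libraries lay far below both WENR-plus libraries (a fitted change of 24.7 times). Smoc2, a matricellular protein of the crypt base, went from 19.3 and 32.0 to 1.00 and 1.51 CPM (log2 fold change -4.34 ± 0.86 SE, adjusted p = 0.0021). The transcription factor Ascl2, which maintains the stem cell programme, went from 6.01 and 7.64 to 0.462 and 0.717 CPM (log2 fold change -3.51 ± 0.68 SE, adjusted p = 0.0018). Tnfrsf19, a TNF receptor family member and Wnt target, had 88 counts in WENR-plus and 2 in WENR-minus, a ratio of 30.7-fold, counting interval 8.26 to 258 (exact, 95%, counting error only), and it lost its call without WENR-minus replicate 1, WENR-plus replicate 2 or WENR-minus replicate 2 (adjusted p 0.1 to 0.11). Aqp1, Mex3a, Cdca7 and Sox9 fell by 2.97 to 3.32 on the log2 scale.

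Other genes of the crypt base fell less or were not called. Lrig1, which restrains the EGF receptor in stem cells, fell from 167 and 177 to 35.9 and 45.2 CPM (log2 fold change -2.09 ± 0.28 SE, adjusted p = 0.00023). Slc12a2, the chloride loading cotransporter of crypt cells, was at 1009 and 1038 CPM in WENR-plus and at 245 and 309.9 CPM in WENR-minus (log2 fold change -1.88 ± 0.41 SE, adjusted p = 0.0038). Ephb2, the ephrin receptor that positions crypt cells, was at 193 and 184 CPM in WENR-plus and at 116 and 134 CPM in WENR-minus. Its groups did not overlap, but its log2 fold change of -0.60 ± 0.21 (adjusted p = 0.044) did not pass the limit of 1. Kcnq1, Rgmb and Ephb3 lay lower in both WENR-minus libraries than in both WENR-plus libraries and were not called either. Bmi1 had a log2 fold change of 0.00 ± 0.25, and Prom1, the membrane protein CD133, went from 403 and 448 to 931 and 767 CPM, just short of the limit (log2 fold change 1.00 ± 0.20 SE, adjusted p = 0.0022). Olfm4, a stem cell marker of the small intestine, was near 0 in all 4 libraries.

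**Figure D2:**
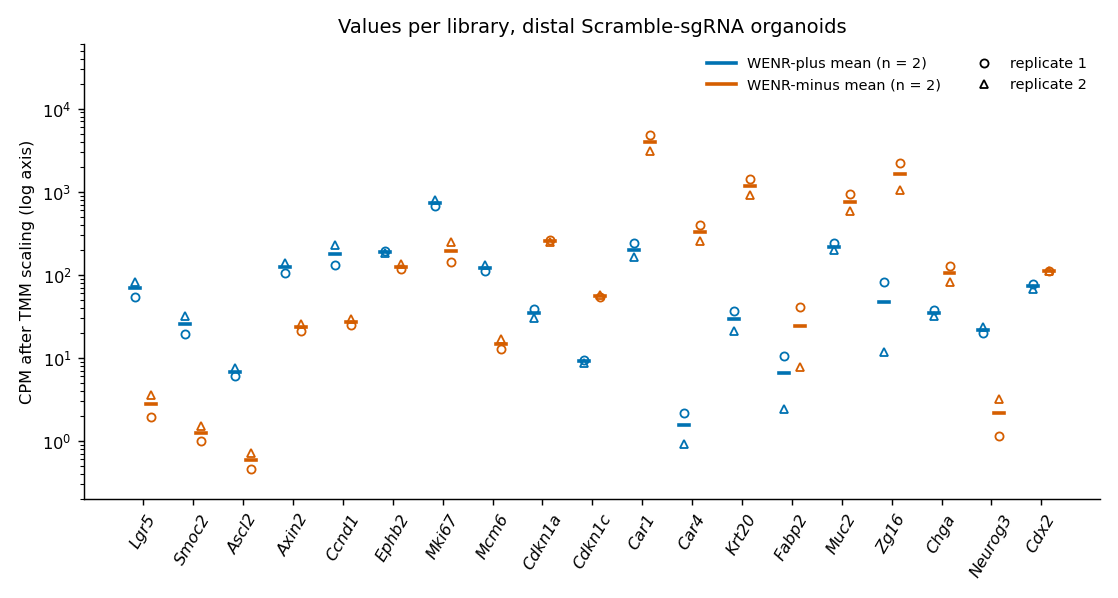
CPM after TMM scaling (log axis) of 19 genes in each distal Scramble-sgRNA library, with WENR-plus in blue, WENR-minus in orange, circles for replicate 1, triangles for replicate 2 and bars for the mean of 2 libraries. Lgr5, Smoc2 and Ascl2 dropped in both replicates, Car4 and Krt20 rose in both, and the values of Fabp2 overlap between the media (2.42 to 10.6 against 7.67 to 41.0 CPM).

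Negative feedback genes and direct targets of the Wnt pathway fell as well. This list overlaps with the stem cell list (Tnfrsf19 is in both), so that their counts are not separate. Of 25 listed genes 22 were tested, of which 13 fell and 2 rose (68.2% called, beside 26.4% of all genes). Their median log2 fold change was -2.37, and -1.70 with genes of at most 3 counts in every library of a medium set to their limits. Axin2, the scaffold that returns beta-catenin to destruction, was at 106 and 139 CPM in WENR-plus and at 21.2 and 25.3 CPM in WENR-minus (log2 fold change -2.39 ± 0.34 SE, adjusted p = 0.00031). The ubiquitin ligases that remove Frizzled receptors fell too, Znrf3 from 45.1 and 55.1 to 6.93 and 12.7 CPM (log2 fold change -2.35 ± 0.28 SE, adjusted p = 0.00012). Rnf43 fell from 72.9 and 115 to 30.5 and 35.4 CPM (log2 fold change -1.51 ± 0.33 SE, adjusted p = 0.0035). Notum, the secreted enzyme that inactivates Wnt ligands, had 28 counts in WENR-plus and 3 in WENR-minus (a ratio of 6.52-fold, counting interval 2.01 to 33.5). Tcf7, a TCF factor, fell from 15.3 and 18.4 to 2.46 and 2.58 CPM (log2 fold change -2.73 ± 0.51 SE, adjusted p = 0.0014). Apcdd1, a Wnt inhibitor at the cell surface, fell by 3.19 ± 0.87 but lost its call without WENR-minus replicate 1 (log2 fold change -2.63, adjusted p = 0.11) or without WENR-plus replicate 2 (log2 fold change -2.58, adjusted p = 0.083). The members that rose were Efnb1, the ephrin ligand of the Ephb receptors, from 38.1 and 34.1 to 123 and 123 CPM (log2 fold change 1.77 ± 0.15 SE, adjusted p = 2.6e-05), and the secreted Wnt inhibitor Wif1, from 0.401 and 0.591 to 2.08 and 1.72 CPM (log2 fold change 1.92 ± 0.55 SE, adjusted p = 0.02). Wif1 lost its call without WENR-plus replicate 1, WENR-minus replicate 1 or WENR-plus replicate 2 (adjusted p 0.056 to 0.11). Lef1, Nkd1 and Sp5 had at most 4 counts in a library and were not called.

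Of 27 ligands, receptors and co-factors of the pathway 23 were tested, 3 rose and 2 fell (21.7% called, near the 26.4% of all genes), and the median was -0.24 (0.00 with genes at the floor set to their limits). It was -0.74 with library totals only, -0.15 without WENR-minus replicate 1, -0.10 without WENR-plus replicate 2 and -0.66 without WENR-minus replicate 2. Tcf7l2, the main TCF factor of the gut epithelium, rose from 136 and 167 to 539.5 and 735 CPM (log2 fold change 2.07 ± 0.24 SE, adjusted p = 0.00012). The Frizzled receptor Fzd5 rose from 47.2 and 48.4 to 110.4 and 118 CPM (log2 fold change 1.25 ± 0.15 SE, adjusted p = 0.00012). Lgr4, the R-spondin receptor of the whole crypt, rose from 98.2 and 85.7 to 192 and 185 CPM (log2 fold change 1.04 ± 0.14 SE, adjusted p = 0.00023), while its relative Lgr5 fell. The increases of Fzd5 and Lgr4 lie within 0.50 of the limit of 1, the size of the shift that library totals alone would bring. Fzd6 fell from 18.0 and 13 to 6.46 and 4.52 CPM (log2 fold change -1.50 ± 0.30 SE, adjusted p = 0.0024). Ror2, a Wnt5a receptor, fell by 2.45 ± 0.82 and lost its call without any single one of the 4 libraries (adjusted p 0.066 to 0.15). The co-receptors Lrp6 (0.93 ± 0.17) and Lrp5 (-0.49 ± 0.24) were not called. Wnt ligands were scarce: Wnt3 had 0.385 to 1.61 CPM, Wnt6, Wnt7b and Wnt10a had under 1 CPM, and Wnt4, Wnt5a, Wnt9b and Wnt11 had at most 2 counts in a library.

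**Figure D3:**
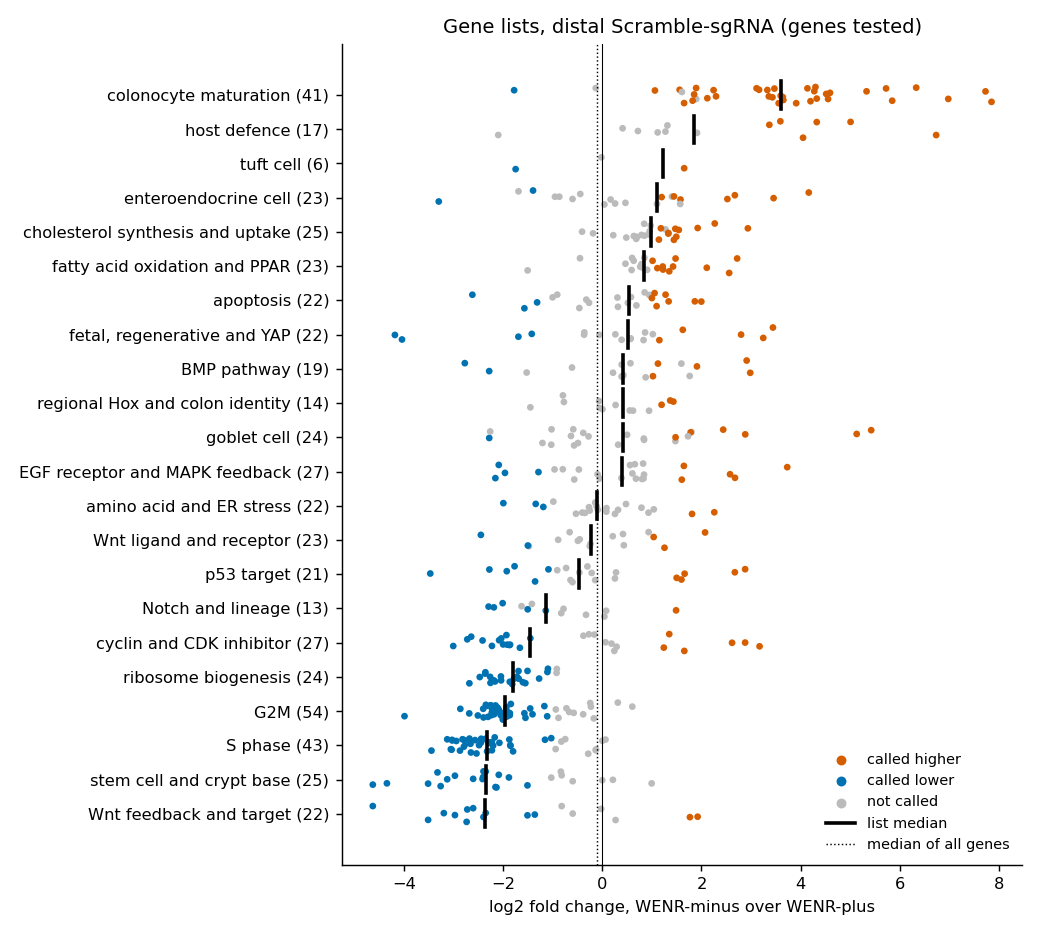
Each point is a tested member of one of 22 gene lists, placed by its log2 fold change of WENR-minus over WENR-plus, with called genes in orange (higher) or blue (lower). Genes with at most 3 counts in every library of a medium are not drawn, black bars are list medians and the dotted line is the median of all genes (-0.11). Lists of cell division lie to the left (median -2.32 for S phase), and the colonocyte list lies to the right (median 3.60).

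Genes of DNA replication and mitosis fell in large numbers. All 43 genes of the S phase list were tested, 35 fell and 0 rose (81.4% called, median -2.32). Of 54 genes of the G2M list 43 fell and 0 rose (79.6% called, median -1.97). Over all genes tested 26.4% were called and 14.2% fell. Dtl, which marks replication factors for destruction, went from 37.8 and 44.3 to 3.00 and 4.52 CPM (log2 fold change -3.44 ± 0.37 SE, adjusted p = 6.5e-05). Of the MCM helicase that unwinds DNA, Mcm6 fell from 111 and 131 to 12.7 and 16.9 CPM (log2 fold change -3.03 ± 0.35 SE, adjusted p = 0.0001) and Mcm5 from 82.4 and 83.8 to 10.8 and 13.8 CPM (log2 fold change -2.75 ± 0.48 SE, adjusted p = 0.00096). In all, 8 of the 9 tested Mcm genes fell. Cdc6, which loads that helicase, was at 20.1 and 20.7 CPM in WENR-plus and at 2.77 and 3.58 CPM in WENR-minus (log2 fold change -2.68 ± 0.46 SE, adjusted p = 0.00089). Mki67, the antigen Ki-67 of dividing cells, fell from 676 and 800.1 to 141 and 245 CPM (log2 fold change -1.93 ± 0.41 SE, adjusted p = 0.0029). Top2a, the topoisomerase that untangles chromosomes, fell from 331 and 405 to 64.4 and 105 CPM (log2 fold change -2.11 ± 0.39 SE, adjusted p = 0.0013). The mitotic kinase Cdk1 was at 50.6 and 47.7 CPM in WENR-plus and at 7.93 and 16.6 CPM in WENR-minus (log2 fold change -2.0 ± 0.37 SE, adjusted p = 0.0015). Its partner Ccnb2 was at 48.2 and 37.9 CPM in WENR-plus and at 6.39 and 12.9 CPM in WENR-minus (log2 fold change -2.16 ± 0.41 SE, adjusted p = 0.0017). In Cdk1, Ccnb2 and Mki67 the WENR-minus library of replicate 2 held more than that of replicate 1, and both stayed below WENR-plus. Some members were not called: Pcna, the sliding clamp of replication, had -0.13 ± 0.19 (from 176 and 152 to 143 and 158 CPM), Ccne2 had 0.07 ± 0.28 and Gmnn -0.28 ± 0.26.

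Promoters of these genes carried letters known from cell cycle control, and 4 of them are shown. The G2M list held TTTGAA and CCAAT in a higher share than all genes, and the S phase list the E2F letters. This did not hold for every list that fell: TTTGAA stood in 0 of 19 windows of the stem cell list. The windows are RefSeq promoters of the build GRCm38.p6, 250 bases before to 50 after the start of a gene, and 10061 of 12852 tested protein-coding genes had one. TTTGAA, the CHR element of late cell cycle genes, stood on either strand in 32 of 47 G2M windows (68.1%), beside 12.2% of all windows, 16.9% of those of genes that fell and 11% of those that rose. CCAAT, bound by NF-Y, stood in 76.6% of G2M windows and 39.0% of all. TTTCCCGC or TTTGGCGC, forms of the E2F site, stood in 11 of 31 S phase windows (35.5%) and in 3.1% of all. CTTTGAT, searched below, starts its TTTGA as TTTGAA does, and each motif was counted on its own. These matches describe letters and not binding. In the first 2 sequences the capitals mark TTTGAA and CCAAT on either strand (in Cdk1 71 and 15 bases before the start for the former), and in the last 2 they mark the E2F letters.
Cdk1 (chr10:69352863-69353162, minus strand): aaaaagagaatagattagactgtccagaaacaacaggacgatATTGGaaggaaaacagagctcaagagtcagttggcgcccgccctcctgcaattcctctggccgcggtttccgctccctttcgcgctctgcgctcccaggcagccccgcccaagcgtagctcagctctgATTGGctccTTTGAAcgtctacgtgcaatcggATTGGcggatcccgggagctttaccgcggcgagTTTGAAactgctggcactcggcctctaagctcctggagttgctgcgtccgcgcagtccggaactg
Ccnb2 (chr9:70421505-70421804, minus strand): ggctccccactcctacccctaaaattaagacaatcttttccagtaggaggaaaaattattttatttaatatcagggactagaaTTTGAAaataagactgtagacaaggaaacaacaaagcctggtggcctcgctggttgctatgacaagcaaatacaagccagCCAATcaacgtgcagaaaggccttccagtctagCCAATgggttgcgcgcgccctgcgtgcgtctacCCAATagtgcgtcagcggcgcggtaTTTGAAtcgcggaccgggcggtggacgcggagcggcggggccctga
Mcm6 (chr1:128359656-128359955, minus strand): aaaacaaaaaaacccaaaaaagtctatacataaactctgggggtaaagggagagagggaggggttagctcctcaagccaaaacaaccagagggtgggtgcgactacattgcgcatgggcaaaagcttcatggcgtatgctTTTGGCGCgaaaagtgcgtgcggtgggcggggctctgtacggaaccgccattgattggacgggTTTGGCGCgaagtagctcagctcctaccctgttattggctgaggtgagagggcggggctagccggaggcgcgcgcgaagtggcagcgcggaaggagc
Cdc6 (chr11:98907901-98908200, plus strand): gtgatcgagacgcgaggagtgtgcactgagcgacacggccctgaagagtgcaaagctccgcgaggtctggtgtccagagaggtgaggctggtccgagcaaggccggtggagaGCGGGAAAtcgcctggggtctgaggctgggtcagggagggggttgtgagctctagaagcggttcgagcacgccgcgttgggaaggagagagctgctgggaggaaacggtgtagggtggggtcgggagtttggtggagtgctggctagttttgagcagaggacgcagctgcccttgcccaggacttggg

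**Figure D4:**
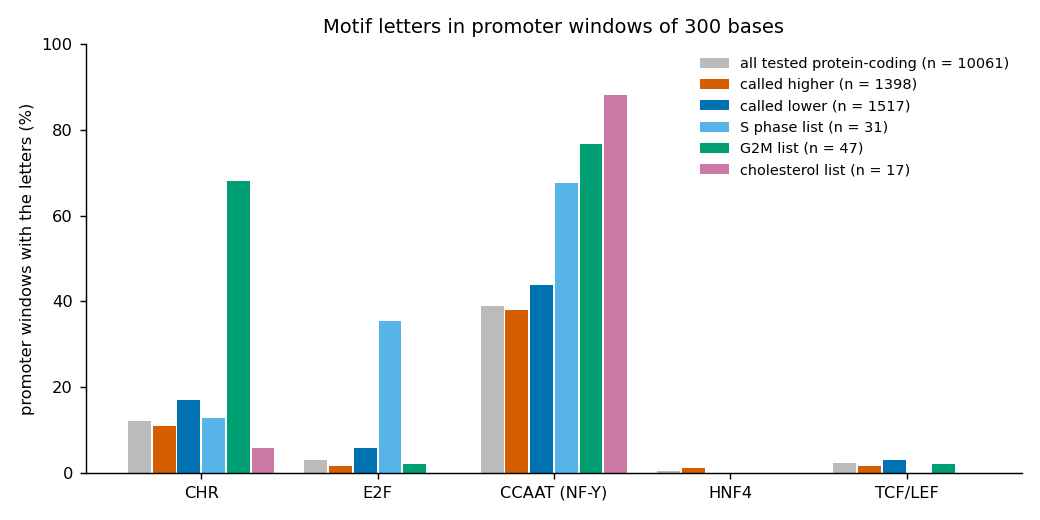
Bars give the share (%) of RefSeq promoter windows of 300 bases that hold the letters of 5 motifs on either strand, for all tested protein-coding genes, genes called higher or lower in WENR-minus, and 3 gene lists, with the number of windows in the legend. The CHR bar of the G2M list stands at 68.1% beside 12.2% for all genes, and the TCF/LEF bars reach at most 2.9%.

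The letters CTTTGAT, a TCF/LEF site, were rare in these windows, with 2.9% of the genes that fell, 1.7% of those that rose and 2.3% of all, and 1 of 15 windows of the Wnt target list had them. The windows of the stem cell list held them in 0 of 19, with 25 genes of that list tested. Lgr5, Smoc2, Sox9, Znrf3, Notum and Ccnd1 were among the genes without a window and so were not searched. Other letters searched were TTTATG (CDX), CAAAGTCCA (HNF4), TCACNCCAC (SREBP) and GGGGTGGGG (KLF). Their shares in the genes that rose were 6.3%, 1.1%, 1.1% and 8.9%, beside 6.4%, 0.5%, 1.1% and 7.5% of all windows.

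Several inhibitors of the cell cycle rose, while the cyclin Ccnd1 and the kinase Cdk6 were among the genes that fell. Of 27 cyclins, cyclin-dependent kinases, their inhibitors and E2F factors, 14 fell and 6 rose (74.1% called, beside 26.4% of all genes). Cdkn2b, which encodes the inhibitor p15 and is a known target of TGF-beta family signalling, rose from 26.4 and 12.5 to 181 and 171 CPM (log2 fold change 3.17 ± 0.55 SE, adjusted p = 0.00094). Cdkn1a (p21) was at 39.0 and 30.4 CPM in WENR-plus and at 264 and 247 CPM in WENR-minus (log2 fold change 2.88 ± 0.22 SE, adjusted p = 2.3e-05). The 2 values within each medium were close. Cdkn1c (p57) rose from 9.31 and 8.76 to 54.1 and 56.9 CPM (log2 fold change 2.62 ± 0.29 SE, adjusted p = 8.2e-05). Cdkn1b (p27) rose from 68.0 and 52.5 to 159.7 and 219.7 CPM (log2 fold change 1.65 ± 0.38 SE, adjusted p = 0.0051). The other members that rose were E2f2 (1.35 ± 0.20) and the retinoblastoma gene Rb1 (1.24 ± 0.28). Among those that fell were E2f1 from 9.56 and 11.8 to 0.923 and 1.72 CPM (log2 fold change -3.00 ± 0.45 SE, adjusted p = 0.00042), the G1 cyclin and Wnt target Ccnd1 from 131 and 229 to 24.9 and 29.6 CPM (log2 fold change -2.72 ± 0.38 SE, adjusted p = 0.00029), E2f7 (-2.64 ± 0.56), Cdk6 (-2.41 ± 0.36) and the inhibitor Cdkn2c, p18 (-2.04 ± 0.31). Cdkn2a was under 1 CPM in all 4 libraries.

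Genes for making ribosomes fell almost without exception. Of 24 listed genes of ribosome biogenesis, 22 fell and 0 rose (91.7% called, beside 26.4% of all genes, median -1.80). Utp20 (-0.92 ± 0.23) and Bop1 (-0.92 ± 0.27) missed the limit of 1. Gnl3, a nucleolar GTPase also called nucleostemin, went from 58.0 and 83.6 to 10.5 and 11.5 CPM (log2 fold change -2.68 ± 0.29 SE, adjusted p = 6.8e-05). Fbl, the methyltransferase of ribosomal RNA, went from 29.4 and 30.1 to 4.54 and 6.16 CPM (log2 fold change -2.47 ± 0.39 SE, adjusted p = 0.00058). Polr1b, a core subunit of RNA polymerase I, went from 22.1 and 31.8 to 5.46 and 5.02 CPM (log2 fold change -2.36 ± 0.33 SE, adjusted p = 0.00029). Nolc1, a nucleolar chaperone, went from 52.8 and 105 to 12.2 and 18.7 CPM (log2 fold change -2.36 ± 0.40 SE, adjusted p = 0.00086).

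Colonocyte genes rose strongly. Of 43 genes of colonocyte maturation 41 were tested, 37 rose and 1 fell (92.7% called, beside 26.4% of all genes). Their median log2 fold change was 3.60 (3.56 with genes at the floor set to their limits). Their summed level was 4397 to 6111 CPM in WENR-plus and 36686 to 49159 CPM in WENR-minus. Clca4a, a chloride channel accessory protein of surface cells (chr3:144952480-144975045 in GRCm38), had 0 counts in both WENR-plus libraries and 1454 and 1043 in WENR-minus, at least 599-fold higher against 3 counts per library. Its near-identical neighbour Clca4b can share reads with it and rose from 1.30 and 0.645 to 31.3 and 15.1 CPM. Slc9a3, the apical sodium-proton exchanger NHE3, rose from 2.65 and 0.807 to 559 and 248 CPM (log2 fold change 7.85 ± 0.91 SE, adjusted p = 0.00011). Car4, the membrane-bound carbonic anhydrase, rose from 2.15 and 0.914 to 401 and 257 CPM (log2 fold change 7.73 ± 0.57 SE, adjusted p = 2e-05). The water channel Aqp8 rose from 27.6 and 5.75 to 2634 and 1575 CPM (log2 fold change 6.98 ± 0.93 SE, adjusted p = 0.00021). In Slc9a3, Car4 and Aqp8 the libraries of replicate 1 were the higher ones in both media.

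Further enzymes, transporters and structural genes of the colonocyte list rose, while Anpep fell and Fabp2, Guca2b and Hsd11b2 were not called. Alpi, intestinal alkaline phosphatase, was at 1.70 and 1.13 CPM in WENR-plus and at 112 and 118 CPM in WENR-minus (log2 fold change 6.33 ± 0.66 SE, adjusted p = 5.8e-05). Its promoter window is shown because it was the single one of 33 colonocyte windows with the HNF4 letters (capitals). Hnf4a, the receptor that binds such sites, rose from 447 and 299.6 to 1360.2 and 1335 CPM (log2 fold change 1.85 ± 0.30 SE, adjusted p = 0.00058). Those letters stood in 46 of 10061 windows of all tested genes (0.5%), in 15 of 1398 of genes that rose (1.1%), in 0 of 1517 of genes that fell and in 31 of 7146 of genes that were not called (0.4%).
Alpi (chr1:87101557-87101856, minus strand): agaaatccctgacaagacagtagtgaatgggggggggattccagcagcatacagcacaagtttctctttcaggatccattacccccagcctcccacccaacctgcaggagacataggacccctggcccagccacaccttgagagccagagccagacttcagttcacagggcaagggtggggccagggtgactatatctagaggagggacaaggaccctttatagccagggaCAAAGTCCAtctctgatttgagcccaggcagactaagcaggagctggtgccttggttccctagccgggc

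Krt20, the keratin of differentiated surface cells, rose from 36.9 and 21.1 to 1429.8 and 904 CPM (log2 fold change 5.33 ± 0.63 SE, adjusted p = 0.00012). Car1, the cytosolic carbonic anhydrase of colonocytes, was at 239 and 163 CPM in WENR-plus and at 4846 and 3061 CPM in WENR-minus (log2 fold change 4.30 ± 0.40 SE, adjusted p = 3.9e-05). Klf4, a transcription factor of postmitotic cells, rose from 131 and 65.2 to 1288 and 827 CPM (log2 fold change 3.43 ± 0.33 SE, adjusted p = 4.3e-05). Slc26a3, the chloride-bicarbonate exchanger, rose from 95.8 and 58.9 to 1758 and 1238 CPM (log2 fold change 4.28 ± 0.33 SE, adjusted p = 2.4e-05). Myo1a and Cdhr5, parts of the microvillus, rose by 4.52 and 3.36 on the log2 scale. The bile acid transporter subunit Slc51b rose by 5.85, and Slc51a had 1 count in WENR-plus and 18 in WENR-minus (25.8-fold, counting interval 4.07 to 1074). Fabp2, a fatty acid binding protein more abundant in the small intestine, was at 10.6 and 2.42 CPM in WENR-plus and at 41.0 and 7.67 CPM in WENR-minus. Replicate 1 was the higher one in each medium, the media overlapped, and it missed the threshold (adjusted p = 0.052), which it passed with RLE scaling (0.044), DESeq2 (0.014) and the replicate block (0.045). Its log2 fold change of 1.89 ± 0.71 was 0.23 (adjusted p = 0.84) without WENR-minus replicate 1, 1.29 (0.24) without WENR-plus replicate 2, 2.65 (0.0082) without WENR-minus replicate 2 and 3.37 (0.012) without WENR-plus replicate 1. Guca2b (-0.13 ± 0.58) and Hsd11b2 (1.61 ± 0.70) were not called. Anpep, an aminopeptidase, fell by 1.78 ± 0.52 and lost its call without any single one of the 4 libraries (adjusted p 0.051 to 0.11).

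Of 25 goblet cell genes 24 were tested, 6 rose and 1 fell (29.2% called, beside 26.4% of all genes), and the median of 0.41 turned to -0.10 with library totals only and to -0.01 without WENR-minus replicate 1. It was 1.08 without WENR-plus replicate 1, 0.22 without WENR-plus replicate 2 and 0.73 without WENR-minus replicate 2. The 3 largest increases were those of Clca1, Zg16 and Fcgbp. Clca1, a mucus protease, rose from 130.5 and 14.4 to 4464 and 1754 CPM (log2 fold change 5.42 ± 1.17 SE, adjusted p = 0.0035). Zg16, a lectin that binds bacteria, rose from 81.2 and 11.6 to 2203 and 1050.2 CPM (log2 fold change 5.13 ± 1.09 SE, adjusted p = 0.0031). Fcgbp, which is bound to the mucin network, rose from 394 and 214 to 2549 and 1935 CPM (log2 fold change 2.88 ± 0.64 SE, adjusted p = 0.0041). In all 3 replicate 1 was the higher one in both media. Muc2, the gel-forming mucin, was at 239 and 199 CPM in WENR-plus and at 936 and 586 CPM in WENR-minus, higher in both WENR-minus libraries, but missed the threshold (log2 fold change 1.80 ± 0.72 SE, adjusted p = 0.068), which it passed with DESeq2 (adjusted p = 0.044). The mucin Muc13 and the trefoil peptide Tff3 rose by 1.48 and 1.78, and Capn9 by 2.44, a call that was lost without WENR-plus replicate 1, WENR-minus replicate 1 or WENR-plus replicate 2 (adjusted p 0.07 to 0.19). Spdef, Foxa3 and Gfi1, transcription factors of the goblet lineage, had log2 fold changes of -0.57 ± 0.83, -0.58 ± 0.43 and -0.28 ± 0.87 and were not called. Kit fell by 2.28 ± 0.78 and lost its call without any single one of the 4 libraries (adjusted p 0.07 to 0.19).

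Several hormone genes rose and the earliest endocrine regulator fell. Of 26 enteroendocrine genes 23 were tested, 9 rose and 2 fell (47.8% called, beside 26.4% of all genes). Neurog3, the transcription factor that commits progenitors to the endocrine fate, went from 20.1 and 23.3 to 1.15 and 3.23 CPM (log2 fold change -3.30 ± 0.69 SE, adjusted p = 0.0029). Insm1, which acts after it, went from 14 and 19 to 7.62 and 4.95 CPM (log2 fold change -1.40 ± 0.42 SE, adjusted p = 0.021). Insm1 lost its call without WENR-plus replicate 2 (log2 fold change -1.07, adjusted p = 0.15) or without WENR-minus replicate 2 (log2 fold change -1.12, adjusted p = 0.14). Hormones and hormone-making enzymes of mature cells lay higher. Tph1, which makes serotonin, rose from 8.71 and 11.3 to 92.3 and 35.4 CPM (log2 fold change 2.67 ± 0.41 SE, adjusted p = 0.00047). Peptide YY (Pyy) rose from 13 and 15.2 to 69.5 and 92.5 CPM (log2 fold change 2.52 ± 0.59 SE, adjusted p = 0.0054). Chromogranin A (Chga), a granule protein, rose from 37.9 and 31.9 to 126 and 82.2 CPM (log2 fold change 1.58 ± 0.28 SE, adjusted p = 0.0012). Insl5, a hormone of the distal colon, rose by 4.16 ± 1.16 and Gcg by 3.45 ± 1.00. Both lost the call without WENR-minus replicate 1 or WENR-plus replicate 2 (adjusted p up to 0.11 and 0.14). Ghrl had 5 counts in WENR-plus and 77 in WENR-minus (22.0-fold, counting interval 9.05 to 69.8), a call lost without WENR-plus replicate 1 or WENR-minus replicate 2 (adjusted p 0.051 to 0.052). Nts had 0 and 17 counts, at least 4.15-fold higher, lost without WENR-plus replicate 1, WENR-minus replicate 1 or WENR-plus replicate 2 (adjusted p 0.12 to 0.21).

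Of 18 tuft genes 6 were tested, 1 rose and 1 fell (33.3% called, beside 26.4% of all genes), and Trpm5, Il25, Chat and Rgs13 had 0 counts in all 4 libraries. The summed level of that list, 868 to 922 CPM in WENR-plus and 209 to 332 CPM in WENR-minus, was almost all Cd24a, a surface protein that crypt cells also carry. Cd24a fell from 919.6 and 867 to 203 and 329 CPM (log2 fold change -1.75 ± 0.51 SE, adjusted p = 0.018) and lost its call without WENR-plus replicate 1, WENR-minus replicate 1 or WENR-plus replicate 2 (adjusted p 0.063 to 0.14). Hpgds, a prostaglandin D synthase, rose from 1.1 and 0.699 to 3.77 and 1.94 CPM (log2 fold change 1.65 ± 0.59 SE, adjusted p = 0.044) and lost its call without WENR-plus replicate 1, WENR-minus replicate 1 or WENR-plus replicate 2 (adjusted p 0.073 to 0.28). Of 11 Paneth cell and small intestinal markers 5 were tested and 3 rose. Slc10a2, the bile acid transporter of the ileum, rose from 21.9 and 11.1 to 103 and 83.9 CPM (log2 fold change 2.49 ± 0.40 SE, adjusted p = 0.00057). Apoa4 (2 and 97 counts, 69.4-fold, counting interval 18.7 to 581) and Apoa1 (3 and 41 counts, 19.6-fold, counting interval 6.24 to 98.8) rose mainly in replicate 1. Both lost their calls without WENR-minus replicate 1 (adjusted p = 0.058 and 0.17), and Apoa1 also without WENR-plus replicate 2 (0.078). The summed level of that list was 13.8 to 25.7 CPM in WENR-plus and 92.5 to 119 CPM in WENR-minus, most of it Slc10a2. Lyz1 was under 1 CPM and the defensins Defa17, Defa24 and Defa30 were at 0.

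Among Notch pathway and lineage genes, 13 of 16 were tested, 5 fell and 1 rose (46.2% called, beside 26.4% of all genes). The receptor Notch2 fell from 11.8 and 21.0 to 3.46 and 4.66 CPM (log2 fold change -2.01 ± 0.38 SE, adjusted p = 0.0016). The glycosyltransferase Lfng, which tunes Notch receptors, fell from 16.3 and 13.9 to 3.69 and 2.94 CPM (log2 fold change -2.19 ± 0.37 SE, adjusted p = 0.00085). The ligand Jag1 fell from 15.9 and 26.7 to 6.85 and 8.17 CPM (log2 fold change -1.50 ± 0.29 SE, adjusted p = 0.002), a call that ended without WENR-plus replicate 2 (log2 fold change -0.99, adjusted p = 0.028). Jag2 fell by 1.14 ± 0.33. Notch1 fell by 2.29 ± 0.71 and lost its call without WENR-minus replicate 1 (log2 fold change -1.74, adjusted p = 0.17) or without WENR-plus replicate 2 (log2 fold change -1.84, adjusted p = 0.13). Numb, an inhibitor of Notch, rose from 51.6 and 46.3 to 145 and 129.9 CPM (log2 fold change 1.49 ± 0.12 SE, adjusted p = 2.6e-05). The Notch target Hes1 (0.08 ± 0.26) and Atoh1, the secretory lineage factor (-0.78 ± 0.51), were not called.

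Of 27 genes of EGF receptor signalling and MAP kinase feedback, 5 rose and 4 fell (33.3% called, beside 26.4% of all genes, median 0.41, and -0.00092 with library totals only). Etv4, a transcription factor that reports MAP kinase activity, fell from 17.5 and 18.4 to 3.39 and 4.66 CPM (log2 fold change -2.16 ± 0.41 SE, adjusted p = 0.0017). The feedback inhibitor Spry1 fell from 15.4 and 20.6 to 3.85 and 5.38 CPM (log2 fold change -1.96 ± 0.29 SE, adjusted p = 0.00037). Etv5 fell by 1.29 and lost its call without WENR-plus replicate 1 (log2 fold change -0.91, adjusted p = 0.089) or without WENR-minus replicate 2 (log2 fold change -1.20, adjusted p = 0.057). Errfi1, an inhibitor of the receptor that growth factors and stress induce, rose from 33.1 and 34.6 to 222 and 211 CPM (log2 fold change 2.68 ± 0.37 SE, adjusted p = 0.00029). The phosphatase Dusp5 rose from 5.51 and 15.2 to 52.0 and 71.1 CPM (log2 fold change 2.58 ± 0.40 SE, adjusted p = 0.00047). The receptors Erbb3 (from 142 and 153 to 444 and 482 CPM) and Erbb2 (from 103 and 116 to 292 and 376 CPM) rose by 1.65 and 1.60, while Egfr itself had 0.84 ± 0.28 and was not called. The ligand Epgn (epigen) rose by 3.73, a call lost without WENR-minus replicate 1, WENR-plus replicate 2 or WENR-minus replicate 2 (adjusted p 0.075 to 0.12). Dusp6 (0.56 ± 0.19), Egr1 (-0.05 ± 0.23) and Phlda1 (-0.47 ± 0.17), further immediate targets, stayed within the limit of 1.

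Of 27 BMP pathway genes 19 were tested, 5 rose and 2 fell (36.8% called, beside 26.4% of all genes, median 0.43, -0.08 with library totals only and 0.96 without WENR-plus replicate 2). Smad7, an inhibitor that the pathway itself induces, rose from 8.61 and 7.31 to 68.4 and 57.7 CPM (log2 fold change 2.98 ± 0.23 SE, adjusted p = 2.4e-05). The BMP target Id1 rose from 10.9 and 10.6 to 47.5 and 33.2 CPM (log2 fold change 1.91 ± 0.29 SE, adjusted p = 0.00047). The ligand Bmp2 rose from 76.7 and 30.5 to 391 and 417 CPM (log2 fold change 2.91 ± 0.35 SE, adjusted p = 0.00012). Id3 and Smad6 rose by 1.02 and 1.12, from levels of 0.601 to 2.53 CPM, and Smad6 lost its call without any single one of the 4 libraries (adjusted p 0.05 to 0.17). Atoh8 fell from 2.05 and 3.60 to 0.308 and 0.502 CPM (log2 fold change -2.77 ± 0.53 SE, adjusted p = 0.0017). The ligand Bmp7 fell by 2.28 and lost its call without WENR-minus replicate 1, WENR-plus replicate 2 or WENR-minus replicate 2 (adjusted p 0.05 to 0.39) and with RLE scaling (0.050). Nog, the mouse gene for Noggin, had at most 6 counts in a library.

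Of 25 genes of cholesterol synthesis and uptake, 11 rose and 0 fell (44% called, beside 26.4% of all genes, median 0.98, 0.51 in replicate 1, 1.5 in replicate 2 and 0.48 with library totals only). Insig1, the sterol sensor that retains SREBP, rose from 335 and 153 to 1567 and 2168 CPM (log2 fold change 2.94 ± 0.38 SE, adjusted p = 0.00019). The sterol enzymes Sc5d, from 81.8 and 48.3 to 314 and 313 CPM (log2 fold change 2.27 ± 0.24 SE, adjusted p = 5.8e-05), and Msmo1, from 406 and 222 to 1128 and 1256 CPM (log2 fold change 1.92 ± 0.34 SE, adjusted p = 0.0011), rose too. Hmgcs1 (log2 fold change 1.28 ± 0.48 SE, adjusted p = 0.052) and Srebf2 (0.22 ± 0.18) were not called. The letters CCAAT stood in 15 of 17 windows of this list (88.2%, beside 39.0% of all). They were also frequent in the G2M list (76.6%) and in the amino acid and ER stress list (76.2%). The SREBP letters TCACNCCAC stood in 1 of 17 windows (5.9%, beside 1.1% of all). The window of Msmo1 is shown with CCAAT in capitals, on either strand.
Msmo1 (chr8:64733529-64733828, minus strand): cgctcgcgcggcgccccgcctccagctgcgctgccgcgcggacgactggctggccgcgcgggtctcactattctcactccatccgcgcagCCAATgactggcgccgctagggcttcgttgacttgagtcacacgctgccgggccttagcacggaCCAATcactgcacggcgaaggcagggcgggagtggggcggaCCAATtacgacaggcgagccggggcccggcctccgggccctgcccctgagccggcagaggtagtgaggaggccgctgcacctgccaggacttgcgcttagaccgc

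Of 27 genes of fatty acid oxidation and PPAR targets 23 were tested, 10 rose and 1 fell (47.8% called, beside 26.4% of all genes, median 0.85, and 0.35 with library totals only). Slc25a20, the carnitine carrier of mitochondria, rose from 47.3 and 28.0 to 258 and 239 CPM (log2 fold change 2.72 ± 0.27 SE, adjusted p = 5.1e-05). The coactivator Ppargc1a rose from 25.2 and 13.6 to 66.5 and 101 CPM (log2 fold change 2.11 ± 0.35 SE, adjusted p = 0.0008). Cpt1a, which admits fatty acids to mitochondria, rose from 84.9 and 117 to 241 and 321 CPM (log2 fold change 1.48 ± 0.18 SE, adjusted p = 0.00014). Acot1 had 56 counts in WENR-plus and 0 in WENR-minus, at least 6.45-fold lower.

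Of 21 targets of p53, 5 rose and 6 fell (52.4% called, beside 26.4% of all genes). Their median was -0.46, -0.28 without WENR-plus replicate 1, -0.24 without WENR-plus replicate 2 and -0.97 with library totals only. Eda2r, a death receptor of the TNF receptor family, fell from 27.7 and 40.4 to 2.69 and 3.44 CPM (log2 fold change -3.47 ± 0.35 SE, adjusted p = 5.5e-05). The nuclease Aen fell from 27.4 and 32.5 to 5.77 and 6.59 CPM (log2 fold change -2.28 ± 0.23 SE, adjusted p = 5.5e-05). Cdkn1a, Btg2 (1.66 ± 0.23), Perp (1.60 ± 0.28), Trp53inp1 (1.5 ± 0.40) and Fas (2.67 ± 0.63) rose and Mdm2 had 0.28 ± 0.12. Of 23 apoptosis genes 22 were tested, 7 rose and 3 fell (45.5% called). Bcl2, which protects cells and is highest at the crypt base, fell from 30.8 and 35.0 to 5.39 and 5.30 CPM (log2 fold change -2.62 ± 0.27 SE, adjusted p = 5.8e-05). The BH3-only gene Pmaip1 rose from 74.5 and 58.8 to 208 and 278 CPM (log2 fold change 1.87 ± 0.26 SE, adjusted p = 0.0003). Of 22 genes of amino acid and ER stress 2 rose and 3 fell (22.7% called, near the 26.4% of all genes). Atf3 (2.26 ± 0.57) and Dnajb9 (1.81 ± 0.27) rose and Phgdh (-1.99 ± 0.31), Shmt2 (-1.34 ± 0.35) and Slc7a11 (-1.19 ± 0.29) fell, and Ddit3 had 0.48 ± 0.52. Atf3 lost its call without WENR-plus replicate 2 (adjusted p = 0.063), and Shmt2 and Slc7a11 without WENR-minus replicate 1 (0.092 and 0.069).

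Of 22 fetal, regenerative and YAP target genes 5 rose and 4 fell (40.9% called, beside 26.4% of all genes). The YAP target Ccn2 was at 3.20 and 25.4 CPM in WENR-plus and at 0.769 and 0.788 CPM in WENR-minus, with a wide gap between the WENR-plus replicates, and its call ended without WENR-plus replicate 2 (log2 fold change -1.94, adjusted p = 0.099). Il33, an alarmin, fell from 10.8 and 31.7 to 0.462 and 2.08 CPM (log2 fold change -4.04 ± 0.91 SE, adjusted p = 0.0045), and Ajuba fell by 1.69 ± 0.32. Ccn1, another YAP target, fell by 1.42 and lost its call without WENR-minus replicate 1, WENR-plus replicate 2 or WENR-minus replicate 2 (adjusted p 0.098 to 0.3). Sprr1a, a cornified envelope protein that returns in injured epithelium, rose from 12.6 and 5.00 to 135 and 56.8 CPM (log2 fold change 3.44 ± 0.60 SE, adjusted p = 0.001). Ly6d, a surface protein, rose from 1.15 and 1.40 to 11 and 13.3 CPM (log2 fold change 3.25 ± 0.47 SE, adjusted p = 0.00033). Ly6a (Sca-1), a fetal marker, had -0.36 ± 0.26. Of 25 host defence genes 17 were tested, 6 rose and 1 fell (41.2% called). Saa1, an acute phase protein, rose from 1.35 and 0.323 to 116 and 66.2 CPM (log2 fold change 6.73 ± 0.73 SE, adjusted p = 6.9e-05). Lypd8, which keeps flagellated bacteria off the epithelium, rose from 471 and 147 to 7857 and 4521 CPM (log2 fold change 4.32 ± 0.61 SE, adjusted p = 0.00031). Tgm3, a transglutaminase, rose from 22.2 and 9.30 to 530.2 and 485 CPM (log2 fold change 5.01 ± 0.51 SE, adjusted p = 5.5e-05). Reg3g fell from 21 counts to 0, at least 2.43-fold, and lost its call without any single one of the 4 libraries (adjusted p 0.066 to 0.1).

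Of 19 Hox and colon identity genes 14 were tested, 3 rose and 0 fell (21.4% called, beside 26.4% of all genes). The median was 0.41, -0.10 with library totals only, 0.27 without WENR-minus replicate 1, 0.20 without WENR-plus replicate 2 and 0.17 without WENR-minus replicate 2. Among those that rose were Hoxb13 from 149 and 123 to 363 and 340.1 CPM (log2 fold change 1.37 ± 0.23 SE, adjusted p = 0.00082) and Hoxa13 from 35.5 and 37.2 to 88.7 and 77.9 CPM (log2 fold change 1.20 ± 0.30 SE, adjusted p = 0.0081). The third was Hottip, a long non-coding RNA of the HoxA cluster, from 10.8 and 14.6 to 29.5 and 38.9 CPM (log2 fold change 1.43 ± 0.31 SE, adjusted p = 0.0035). Their increases lie within 0.50 of the limit of 1, and Hoxa13 lost its call without WENR-minus replicate 1 (adjusted p = 0.054). Cdx2 had 0.62 ± 0.20 (adjusted p = 0.027), and Cdx1 0.27 ± 0.21, neither past the limit of 1.

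Apart from the lists, the 12 genes that rose most and the 12 that fell most were read among called protein-coding genes that reached 5 CPM in 1 of the media. After Clca4a, Slc9a3, Car4, Aqp8 and Saa1, the risers were Prss30, a serine protease (from 0.601 and 0.215 to 77.3 and 48.0 CPM), the amino acid transporter subunit Slc3a1 (from 1.80 and 0.968 to 199.99 and 119 CPM), the peptide transporter Slc15a1 (from 0.701 and 0.376 to 69.0 and 43.5 CPM), the amino acid transporter Slc6a14 (from 3.5 and 2.53 to 334 and 193 CPM), the gasdermin Gsdmc4 (from 0.701 and 0.0538 to 66.8 and 7.53 CPM), Rbp2 and Olr1. Rbp2, a retinol binding protein, had 2 counts in WENR-plus and 170 in WENR-minus (122-fold, counting interval 33.2 to 1013), and Olr1, a scavenger receptor, 2 and 144 (103-fold, counting interval 28.0 to 859). Gsdmc4 can share reads with its paralogs, and it lost its call without WENR-minus replicate 1 (log2 fold change 4.27, adjusted p = 0.061) or without WENR-plus replicate 2 (log2 fold change 5.80, adjusted p = 0.059). The fallers beside Lgr5, Smoc2, Ccn2 and Il33 were Cxcl15 with 223 counts in WENR-plus and 3 in WENR-minus (51.9-fold, counting interval 17.5 to 254), Vtcn1, a B7 family protein (from 10.2 and 17.5 to 0.231 and 0.573 CPM), the phosphatase Ptpro (from 9.76 and 9.30 to 0.154 and 0.645 CPM), Piwil4, a Piwi protein (from 14.9 and 9.03 to 0.308 and 0.717 CPM) and Nhs (from 7.26 and 10.5 to 0.539 and 0.287 CPM). The others were Rgcc, a cell cycle regulator (from 68.3 and 57.4 to 3.15 and 3.15 CPM), the anion channel subunit Lrrc8c (from 6.41 and 8.23 to 0.385 and 0.358 CPM) and Mtcl1, which crosslinks microtubules (from 33.0 and 58.6 to 1.69 and 3.44 CPM). In each of these 8 both WENR-minus libraries lay below both WENR-plus libraries.

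On the TPM scale, which allows levels to be compared between genes, the gains with the largest size in WENR-minus were Sprr2a2, Lypd8, Car1, Zg16, Actb, Phgr1, Krt19 and Cyp2c55. The deposited TPM carry no TMM factors, so that differences between media in TPM are not on the scale of the fold changes in CPM. Sprr2a2, a small proline-rich protein whose reads its near-identical copies can share, had 2356 and 671 TPM in WENR-plus and 15385 and 7183 TPM in WENR-minus. Lypd8 had 781 and 250.2 TPM in WENR-plus and 9406 and 5792 TPM in WENR-minus. The cytochrome P450 Cyp2c55 had 215 and 208 TPM in WENR-plus and 2603 and 3132 TPM in WENR-minus, with close replicates in both media. Actb, often taken as a stable reference gene, had 2541 and 2169 TPM in WENR-plus and 6200.2 and 5254 TPM in WENR-minus (log2 fold change 1.73 ± 0.22 SE, adjusted p = 0.00016 on the CPM scale). The largest losses were Hist2h2aa1, Rps6, Npm1, Ptma, Rpl13, Rps27a, Hsp90ab1 and Rpl3. Npm1, a nucleolar chaperone, had 1589 and 2351 TPM in WENR-plus and 355 and 649 TPM in WENR-minus, and the small nuclear protein Ptma had 1771 and 1795 TPM in WENR-plus and 352 and 494 TPM in WENR-minus. Rps6, a protein of the small ribosomal subunit, had 2617 and 2648 TPM in WENR-plus and 571 and 1112 TPM in WENR-minus and lost its call without WENR-minus replicate 1 (log2 fold change -0.84, adjusted p = 0.059). Hsp90ab1, Rpl3, Rps27a and Rpl13 likewise lost their calls without WENR-minus replicate 1, with log2 fold changes of -0.88, -0.91, -1.09 and -0.65. Without WENR-plus replicate 2 those of Hsp90ab1, Rps27a and Rpl13 were -0.92, -1.13 and -0.89 and not called, and Rpl13 was not called with RLE scaling either (-0.94).

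The effect of the medium was then compared with that in proximal Scramble-sgRNA organoids, as the difference of the 2 log2 fold changes in the same fit. The groups share no libraries. In proximal organoids 1335 genes rose (8.73%) and 1260 fell (8.24%). The difference passed the test in 11 genes (0.0719% of those tested), 6 with a higher (0.0392%) and 5 with a lower (0.0327%) distal effect. An unadjusted p under 0.05 was found in 1503 genes. Of the list members above, Car4 was the single one among them. Car4 had 1.34 and 1.54 CPM in WENR-plus and 4.46 and 1.67 CPM in WENR-minus in proximal organoids, so that its distal log2 fold change of 7.73 stood beside a proximal one of 1.07 ± 0.53 (difference 6.65 ± 0.74, adjusted p = 0.011). Rnf152, a ubiquitin ligase of lysosomes that acts on mTORC1 signalling, rose from 1.20 and 0.807 to 26.2 and 23.2 CPM in distal organoids and had 0.430 and 0.533 CPM in WENR-plus and 0.248 and 0.104 CPM in WENR-minus in proximal ones (difference 6.05 ± 0.62, adjusted p = 0.011). Usp2, a deubiquitinase, went from 2.60 and 1.18 to 12.8 and 15.3 CPM in distal organoids and had 2.68 and 4.79 CPM in WENR-plus and 0.806 and 0.730 CPM in WENR-minus in proximal ones (difference 5.15 ± 0.59, adjusted p = 0.011). Usp2 thus rose in distal and fell in proximal organoids (-2.27 ± 0.43), while the proximal value of Rnf152 (-1.44 ± 0.53) was not called.

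Atp12a, the colonic proton-potassium pump, rose from 89.4 and 45.1 to 1002 and 998 CPM in distal organoids and had 4.59 and 4.02 CPM in WENR-plus and 5.52 and 4.12 CPM in WENR-minus in proximal ones (difference 3.74 ± 0.48, adjusted p = 0.022). Kyat1, an aminotransferase of the kynurenine pathway, and Fhdc1, a formin, rose by 3.36 and 1.97 in distal organoids and had 0.86 and 0.10 in proximal ones (differences 2.5 ± 0.31 and 1.87 ± 0.27). On the other side, Akr1c19, an aldo-keto reductase, was at 42.9 and 35.4 CPM in WENR-plus and at 46.0 and 44.0 CPM in WENR-minus in distal organoids and at 19.2 and 19 CPM in WENR-plus and 199 and 181 CPM in WENR-minus in proximal ones, where it rose by 3.31 (difference -3.11 ± 0.44, adjusted p = 0.039). B4galt4, a galactosyltransferase, rose in proximal organoids (1.17 ± 0.12) and had 0.03 ± 0.12 in distal ones. Itga2, a collagen receptor, fell from 226 and 214 to 84.6 and 83.6 CPM in distal organoids and had 149 and 154 CPM in WENR-plus and 262 and 277 CPM in WENR-minus in proximal ones. The transcriptional regulator Arid5b fell by 2.97 in distal organoids beside -0.85 in proximal ones (adjusted p = 0.045 for either difference). The 11th gene was the pseudogene model Gm49273 (chr15:103657839-103661681), with 87 counts in WENR-plus and 0 in WENR-minus in distal organoids and 2.01 to 3.28 CPM in all 4 proximal libraries, at least 10.2-fold lower in distal WENR-minus. The number of genes that differed moved with each library left out. It was 17 without distal WENR-plus replicate 1, 4 without distal WENR-minus replicate 1 and 5 without either distal replicate 2, and it was 1 without proximal WENR-plus replicate 1, 2 without proximal WENR-minus replicate 1 and 0 without either proximal replicate 2. With the replicate block 20 genes differed, with a block per culture 199, and DESeq2 called 159.

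**Figure D5:**
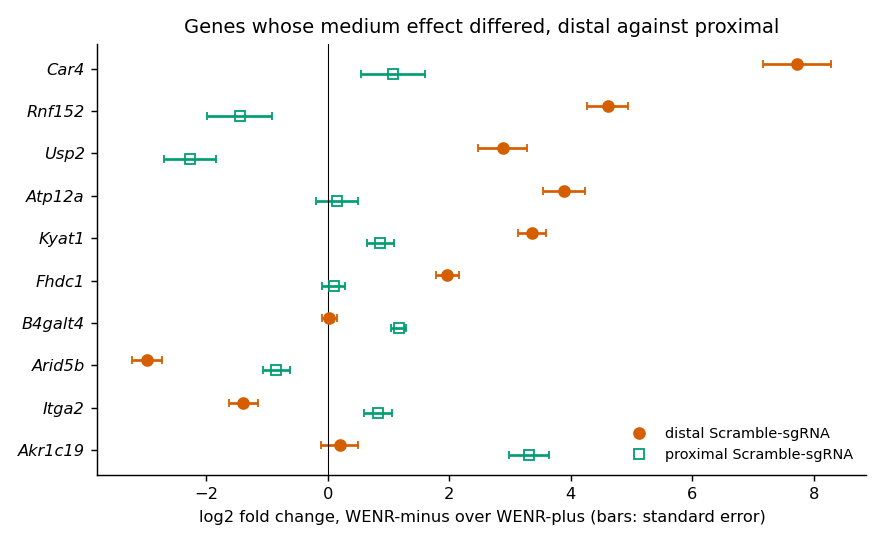
Log2 fold change of WENR-minus over WENR-plus (bars are standard errors) in distal (orange circles) and proximal (green squares) Scramble-sgRNA organoids, for the 10 named genes whose effect differed between the regions. Car4 lies at 7.73 in distal and 1.07 in proximal organoids, and Akr1c19 at 0.20 and 3.31.

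Against distal Cdx2-sgRNA organoids, 0 genes had a medium effect that differed by edgeR (0.0% of those tested), while 1457 had an unadjusted p under 0.05 and DESeq2 called 120. With the replicate block 8 genes were called, and with a block per culture 48. The lowest adjusted p by edgeR was 0.066. In Cdx2-sgRNA organoids 2283 genes rose (14.9%) and 2772 fell (18.1%). Side by side, the medians in Scramble-sgRNA and Cdx2-sgRNA organoids were -2.35 and -2.80 for the stem cell list, -1.97 and -2.92 for the G2M list and 3.60 and 3.77 for the colonocyte list. In proximal Scramble-sgRNA organoids these medians were -1.90, -2.0 and 3.01, and 34 of the 41 colonocyte genes rose there.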

How the data were processed

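RNA from mouse colon organoids was sequenced with paired ends from stranded libraries. The authors estimated transcript abundance with Salmon 1.1.0 on mm10 transcripts and deposited estimated counts per transcript, TPM and transcript lengths (another unit, not used for tests) for each of 16 libraries. Here the estimated counts were summed per gene through the annotation supplied with the reference (139864 of 140748 transcripts matched, and 0.257 to 0.509% of the counts were left out), rounded to whole numbers and scaled by TMM. Sums of the deposited TPM give levels per length. Genes with enough counts by edgeR's filter for the smallest group (15289) were fitted over all 16 libraries, with 1 coefficient per region, guide and medium, by the quasi-likelihood test of edgeR 4.0.16 in R 4.3.3. The fit had 8 residual degrees of freedom and a common biological coefficient of variation of 28.4%. Calls required a Benjamini-Hochberg adjusted p of less than 0.05 together with a log2 fold change beyond 1 in either direction. The difference of 2 medium effects was tested as a contrast of the same fit. The script was tested on simulated counts.

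With 2 libraries per group, the p-values rest on the spread pooled over groups. The replicate number stands for a mouse in the study's methods, and replicate deviations correlated between the media at 0.28 in distal Scramble-sgRNA organoids (0.40 to 0.59 in the other 3 pairs). Genes with at most 3 counts in every library of a medium get a bound, or a ratio with its exact 95% counting interval, in place of a fitted change; these intervals cover counting error only.

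The gene lists and the members described were chosen with earlier results of these data known. The cell cycle lists came from Seurat 5.3.0, the others from general knowledge. Named genes were Cdx2 and the genes the study measured by PCR, up to 4 called members of largest change per list and direction, other members as values, the 12 highest and 12 lowest changes among called protein-coding genes with at least 5 CPM, the 8 largest TPM differences each way, and the genes whose effect differed between regions. Promoter windows came from RefSeq (GRCm38.p6). RLE scaling, DESeq2 1.42.0, other filters, a replicate block, fewer libraries and length-scaled counts were tried as alternatives. Some list members are counted but not reported by name here.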

Additional observations from a re-analysis of the deposited data

Results flagged for a closer look

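In 11 genes the effect of withdrawal differed between distal and proximal Scramble-sgRNA organoids by the contrast of the 2 effects in edgeR. The distal effect was higher, on the log2 scale, by 6.65 in Car4, 6.05 in Rnf152, 5.15 in Usp2, 3.74 in Atp12a, 2.5 in Kyat1 and 1.87 in Fhdc1. It was lower, with differences of -3.11 in Akr1c19, -2.22 in Itga2, -2.12 in Arid5b and -1.14 in B4galt4. For the pseudogene Gm49273 the fitted difference was -8.77, a value that depends on the prior count because both distal WENR-minus libraries were at 0, and this gene model was named after its values were seen.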

How the results depend on the processing

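The number of genes changed by the medium was 4039 and stayed within 1.5 times of that under RLE scaling, DESeq2, the filters on low counts, library totals, the replicate block (4148), length-scaled counts and the 4 libraries alone. It was 6182 with no fold change threshold, and 2984 to 3974 with 1 library left out, where the lone library is assumed to vary like the other groups. The replicate block, which pairs libraries of one mouse, added the call of Fabp2 and ended none of the 158 calls among named genes. Of those 158, 121 held with each library left out. The count of genes that differed between regions was 11, and it was 159 with DESeq2, 454 with no filter, 20 with the replicate block, 199 with a block per culture and 0 to 17 with 1 library left out. With RLE scaling it was 8, all among the 11, with 6 higher and 2 lower, so that 3 of the 5 lower calls were lost. With mitochondrial and ribosomal RNA left out it was 9, all among the 11, and with at least 10 counts in every library it was 14, of which 7 were among the 11. Between guides it was 0, and 120 with DESeq2, 354 with no filter, 4 with at least 10 counts in every library, 8 with the replicate block, 48 with a block per culture and 0 to 1 with 1 library left out. The cause of these differences was not tested. B4galt4 (0.03 in distal organoids) was -0.019 without WENR-minus replicate 1, -0.01 without WENR-plus replicate 2 and 0.22 without WENR-plus replicate 1, none of them called. The medians of 22 lists kept their sign under RLE scaling, and 18 did with library totals only. At 16479050 to 18319430 reads, hormones and tuft cell genes with few counts were at the limit of detection.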

Other observations

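Gene families read by their symbols, chosen after their values were seen and so with no test, were counted beside all genes tested, of which 12.2% rose and 14.2% fell (26.4% called). Of 61 tested clustered histone genes 45 fell and 0 rose (median log2 fold change -1.80), and their share of the reads was 0.366 and 0.330% in WENR-plus and 0.0859 and 0.109% in WENR-minus. Histones are made mainly during DNA replication. Of 76 genes of cytosolic ribosomal proteins 11 fell (14.5%, near the share of all genes) and 0 rose (median -0.87), with a share of 2.79 and 2.94% in WENR-plus and 0.949 and 1.42% in WENR-minus. Of 331 C2H2 zinc finger (Zfp) genes, mostly transcriptional repressors, 70 fell and 6 rose (23% called). The 13 messenger RNAs of the mitochondrial genome gave 0 calls by edgeR.

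Of 37 tested cytochrome P450 genes 19 rose and 3 fell (median 2.47), among them Cyp3a13 (from 4.86 and 2.85 to 207 and 124 CPM, 5.42 ± 0.39) and Cyp4f14 (from 6.46 and 1.88 to 498 and 192 CPM, 6.36 ± 0.63). Of 12 UDP-glucuronosyltransferases 2 rose and 0 fell (16.7% called), of 37 ABC transporters 10 rose and 3 fell (35.1%), and of 237 solute carriers 76 rose and 31 fell (45.1%). Slc40a1, the iron exporter ferroportin, went from 214 and 57.6 to 997 and 1158 CPM (2.99 ± 0.52), and Slc2a1, the glucose transporter GLUT1, from 164 and 103 to 739.7 and 612 CPM (2.34 ± 0.30). Of 18 myosin genes 8 rose and 0 fell, and all 5 tested small proline-rich genes rose, although their near-identical copies can share reads. Of 12 tested claudins 4 rose and 2 fell (50% called). Cldn2, a pore-forming tight junction protein of the crypt, was one that fell, from 79.8 and 59.1 to 9.08 and 15 CPM (-2.53 ± 0.66).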
